A study of Rattus norvegicus with 6 samples.

Results

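The genes described here are 10 negative regulators of signalling by the high-affinity IgE receptor, chosen by symbol: Cbl, Cblb, Ptpn6, Ptpn11, Dok1, Dok2, Csk, Pag1, Sla and Sh2b2. Of the 10 symbols, 9 had a row among the 18286 genes of the table, and all 9 passed the filter on low values (a mean of 1 RPKM or more over the 6 libraries, where RPKM is reads scaled to exon length and library total). Sh2b2 was absent under that symbol and under its RefSeq synonym Aps, so no value is given for this adaptor of receptor kinases. The samples were 6 RNA-seq libraries of RBL-2H3, a rat basophilic leukemia line used as a mast cell model. In 3 control libraries the treatment label was none, and 3 libraries came from cells given dihydrocoumarin (DHC), a lactone of sweet clover. Dose and duration of DHC are not stated in the labels. The treatment protocol attached to every sample is sensitization for 12 h with anti-DNP IgE at 50 ng/ml, then 4 h with the antigen DNP-HSA at 100 ng/ml. The series asks whether DHC inhibits IgE-dependent activation, and the labels do not tell whether control cells received IgE and antigen.

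When antigen cross-links IgE on a mast cell, the Src family kinase Lyn phosphorylates the receptor, Syk is recruited, and adaptors spread the signal to calcium, Ras and lipid kinases. Several proteins hold this cascade back. Csk, held at the membrane by Pag1, phosphorylates the inhibitory tyrosine of Src family kinases. The phosphatase encoded by Ptpn6 (SHP-1) removes activating phosphates, whereas that encoded by Ptpn11 (SHP-2) has both inhibitory and activating roles. Cbl and Cblb tag the receptor and Syk with ubiquitin, Dok1 and Dok2 recruit a GTPase-activating protein that shuts off Ras, and Sla (SLAP) is a small adaptor that works with Cbl.

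With DHC, 6 of the 9 measured regulators fell and 1 rose. Sla fell 3.40-fold, Dok1 1.81-fold, Pag1 1.71-fold, Dok2 1.5-fold, Csk 1.37-fold and Ptpn6 1.22-fold, as ratios of mean RPKM. The filter was passed by Sla through its control libraries, since its mean in DHC libraries was 0.751 RPKM. Ptpn11 rose 1.24-fold. The 2 ubiquitin ligase genes did not pass the test. Calls are limma adjusted p-values below 0.05 over all 10667 genes tested. Over all these genes 34.5% were called, 18.4% as higher and 16.1% as lower, beside 7 of 9 regulators. The median log2 fold change was −0.44 over the 9 regulators and 0.05 over all genes tested. The values of both groups did not overlap for 8 of the 9, where this was so for 49.7% of all genes compared. Since the regulators were chosen with earlier results of these data known, this contrast was not tested.

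The libraries held between 29084976 and 34170922 reads assigned to genes. Of 12 mast cell and basophil markers 9 had a row and all 9 averaged at least 1 RPKM, with a summed level of 1062 to 1096 RPKM in control and 742 to 764 RPKM in DHC libraries. The markers did not all move the same way. Gata2 was at 333.0 to 352.7 RPKM in control and 67.8 to 71.4 RPKM in DHC libraries. Kit, Il1rl1, Hdc and Slc18a2 were also lower in every DHC library than in every control library. Ms4a2 was higher with DHC, at 305.3 to 337.0 RPKM in control and 358.5 to 378.5 RPKM in DHC libraries. Fcer1a, Fcer1g and Cpa3 overlapped between groups. The part of the lower sum in the values of the regulators was not tested. Mcpt2, Mcpt8 and Tpsab1, granule protease genes, had no row. No B cell or macrophage marker with a row averaged 1 RPKM. The fibroblast marker Col3a1 was at 22.58 to 24.42 RPKM in control and 20.57 to 23.43 RPKM in DHC libraries. The endothelial marker Tek was at 9.404 to 10.61 RPKM in control and 7.905 to 8.249 RPKM in DHC libraries. The epithelial marker Krt8 and the erythroid marker Epor also averaged above 1 RPKM. Of the T cell markers Cd3e was at 31.7 to 37.4 RPKM in control and 40.5 to 43.7 RPKM in DHC libraries, while Cd3d and Cd3g did not exceed 0.0950 and 0.334 RPKM in any library. The calls over all genes were 53.4% higher ones, and 37.8% under scaling by trimmed means. The direction of all 9 regulators was the same under both.

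**Figure D1:**
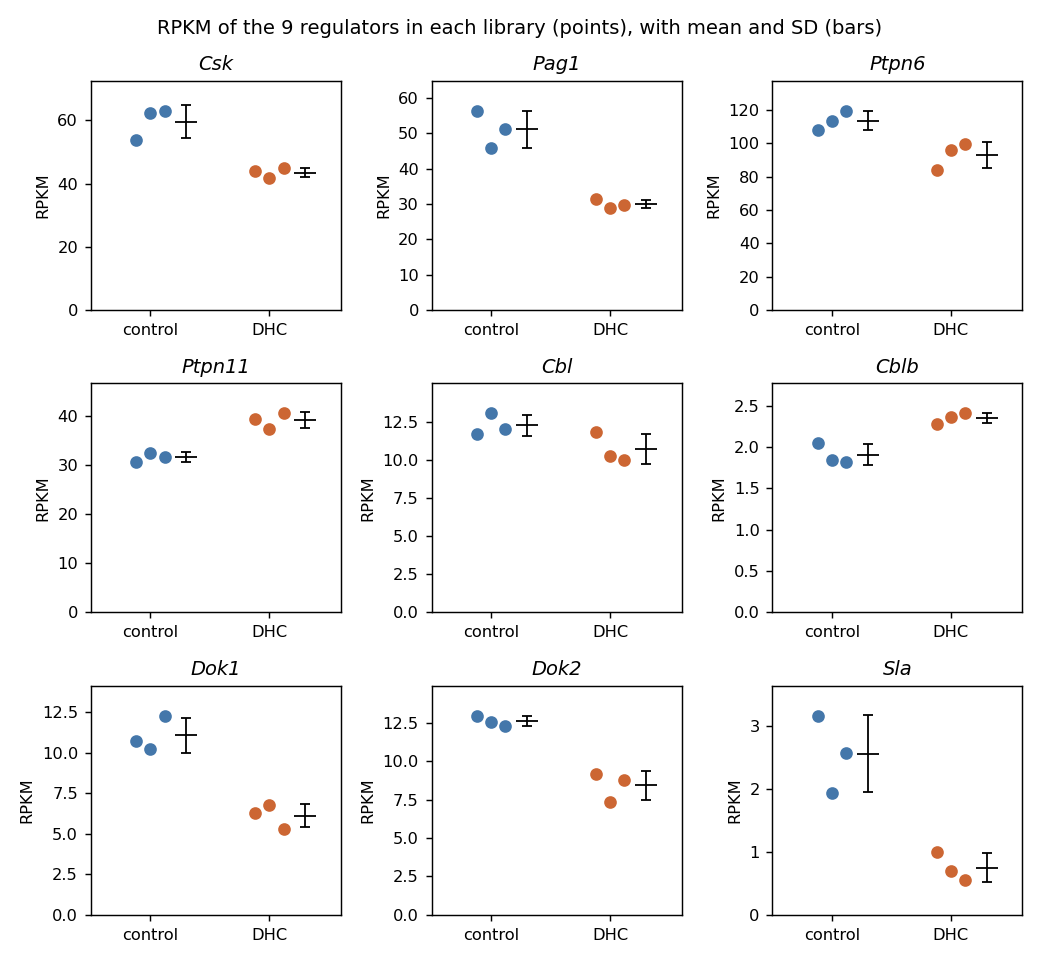
RPKM (y axis, from 0) of each of the 9 measured regulators in the 3 control (blue) and 3 DHC (orange) libraries, with the mean and SD of each group as black bars. The points of both groups stand apart in 8 panels and overlap for Cbl, and Ptpn11 and Cblb are the panels with higher DHC points.

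The regulators with a called change in opposite directions can be set beside their promoters. RefSeq promoter windows of the build GRCr8, from 250 bases before to 50 after the gene's start, were matched for 6 of the 10 genes; Csk, Dok2, Pag1 and Sla had no entry. Dok1 is shown because it had the lowest p among the regulators with a window, and Ptpn11 because it rose. Both are printed in the direction of transcription, and the choice was made after their values were seen. The Dok1 window is chr4:117097585-117097884 on the minus strand, with the letters of a GATA motif (AGATAA) in capitals, 174 bases before the start. The Ptpn11 window is chr12:41025829-41026128 on the plus strand, with the letters of an ETS motif (CCGGAA) in capitals, 98 bases before the start.
Dok1: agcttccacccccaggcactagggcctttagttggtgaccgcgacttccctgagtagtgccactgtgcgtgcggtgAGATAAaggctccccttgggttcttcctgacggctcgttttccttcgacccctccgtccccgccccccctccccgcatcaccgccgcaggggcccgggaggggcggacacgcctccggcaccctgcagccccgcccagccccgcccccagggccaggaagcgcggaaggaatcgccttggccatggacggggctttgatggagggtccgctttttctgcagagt
Ptpn11: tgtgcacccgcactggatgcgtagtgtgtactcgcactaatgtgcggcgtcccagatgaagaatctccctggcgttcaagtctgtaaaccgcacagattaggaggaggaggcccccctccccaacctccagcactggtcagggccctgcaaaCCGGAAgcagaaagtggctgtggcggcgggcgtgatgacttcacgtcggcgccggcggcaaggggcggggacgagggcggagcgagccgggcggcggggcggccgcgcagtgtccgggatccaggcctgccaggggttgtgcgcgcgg

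Searched on both strands, AGATAA was found in 1 of the 6 windows (Dok1) and in 11.6% of all 33469 windows. CCGGAA was found in 2 of 6 (Cbl and Ptpn11) and in 14.95% of all. The letters TGANTCA of AP-1 sites, CACGTG of E-boxes and TGACGTCA of cyclic AMP response elements were in none of the 6, against 7.33%, 6.42% and 1.83% of all windows. The 6 windows held between 60.7% and 76.3% G and C, where the median of all windows was 51.7%. They include that of Sh2b2, which had no value here, and were not compared with windows of tested genes only. A match of letters is a description and does not show that a factor binds there.

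Csk encodes the kinase that switches Src family kinases off (Rnor_6.0 chromosome 8, 62405715 to 62424303, minus strand, 13 exon blocks). Its level was 53.7, 62.2 and 63.0 RPKM in the control libraries and 43.8, 41.8 and 44.8 RPKM in the DHC libraries. Every DHC library lay below every control library, and the lowest control value was replicate 1. The means were 59.6 ± 5.13 and 43.5 ± 1.51 RPKM (SD, n = 3 per group), and the log2 fold change was −0.44 ± 0.07 (SE; limma adjusted p = 0.00251). Unless another setting is named, log2 fold changes of genes are differences on log2(RPKM + 1), which understates changes of low genes.

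Pag1 encodes the membrane adaptor that brings Csk to its substrates (chromosome 2, 94266213 to 94277676, plus strand, 9 exon blocks). It had 56.4, 45.8 and 51.3 RPKM in control and 31.3, 28.9 and 29.7 RPKM in DHC libraries. The groups were far apart, and the control libraries varied more among themselves (coefficient of variation 10.4%) than the DHC libraries (4.17%). Pag1 had the lowest p of all 9 regulators, with a log2 fold change of −0.75 ± 0.08 (SE; adjusted p = 0.000401). Leaving out any library kept Pag1 between −0.82 and −0.67, and the call held each time. The annotated exons of Pag1 sum to 1227 bases and those of Cblb to 6436 bases, the shortest and longest of the 9, so levels of different genes also depend on the gene models counted.

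Ptpn6, the gene of SHP-1 (chromosome 4, 157239142 to 157263890, minus strand, 18 exon blocks), was the most abundant of the 9, at percentile 91.4 of all tested genes by mean RPKM. It stood at 108, 113 and 119 RPKM in control and 84.0, 95.8 and 99.4 RPKM in DHC libraries. The groups did not overlap, and DHC replicate 1 was the lowest library. The log2 fold change was −0.29 ± 0.07 (SE; adjusted p = 0.0175). This call was lost without control replicate 2 (adjusted p = 0.0505) or control replicate 3 (0.0572), with the direction unchanged.

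Ptpn11, the gene of SHP-2 (chromosome 12, 40895515 to 40955999, plus strand, 16 exon blocks), moved the other way. Its control values were 30.7, 32.6 and 31.8 RPKM and its DHC values 39.6, 37.5 and 40.6 RPKM. All DHC libraries were above all control libraries, and replicates differed little (coefficients of variation 3.11% and 4.02%). The log2 fold change was 0.30 ± 0.05 (SE; adjusted p = 0.00411). Scaling by trimmed means lowered it to 0.23 and kept the call (adjusted p = 0.0139).

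Cbl, the gene of the ubiquitin ligase c-Cbl (chromosome 8, 48489036 to 48564722, minus strand, 16 exon blocks), had 11.7, 13.0 and 12.0 RPKM in control and 11.8, 10.3 and 9.99 RPKM in DHC libraries. It was the only regulator of the 9 whose groups overlapped, because DHC replicate 1 lay above control replicate 1. The log2 fold change was −0.18 with a 95% interval from −0.37 to 0.01 (limma adjusted p = 0.119). Without DHC replicate 1 it was −0.25 and passed (0.0433), and without both libraries numbered 1 it was −0.28 and passed (0.0392).

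Cblb encodes the related ligase Cbl-b (chromosome 11, 51037393 to 51202820, minus strand, 19 exon blocks). It was low, with 2.05, 1.84 and 1.82 RPKM in control and 2.28, 2.36 and 2.41 RPKM in DHC libraries, from 344 to 475 reads per library. The DHC values lay above the control values without overlap. The log2 fold change was 0.21 with a 95% interval from −0.02 to 0.43 (adjusted p = 0.132). With a pseudocount of 0.1 it was 0.29 and did not pass (limma adjusted p = 0.138). On reads recovered from the RPKM values, limma-voom gave 0.31 and called it (adjusted p = 0.0306).

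Dok1 (chromosome 4, 113864215 to 113866674, minus strand, 5 exon blocks) and Dok2 encode docking proteins that, once phosphorylated, bind Ras GTPase-activating protein. Dok1 had 10.7, 10.2 and 12.3 RPKM in control and 6.30, 6.75 and 5.31 RPKM in DHC libraries. The highest DHC value was well under the lowest control value, and the log2 fold change was −0.76 ± 0.10 (SE; adjusted p = 0.0013). Dok2 (chromosome 15, 52451161 to 52456409, plus strand, 5 exon blocks) had 12.9, 12.6 and 12.3 RPKM in control and 9.15, 7.35 and 8.74 RPKM in DHC libraries. Its control libraries were tight (coefficient of variation 2.63%) and its DHC libraries looser (11.3%), again without overlap. The log2 fold change of Dok2 was −0.54 ± 0.09 (SE; adjusted p = 0.00283).

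Sla encodes SLAP, an adaptor without a kinase domain that works with Cbl in the downregulation of receptors (chromosome 7, 107585055 to 107634287, minus strand, 9 exon blocks). Over all 6 libraries its mean RPKM was the lowest of the 9, although that of Cblb was lower in control. Sla had 3.15, 1.93 and 2.56 RPKM in control and 1.0, 0.699 and 0.553 RPKM in DHC libraries. These values rest on 185, 108 and 168 reads against 57, 42 and 31 reads, so they were the least precise of the set. Every DHC library was below every control library, with means of 2.55 ± 0.610 and 0.751 ± 0.228 RPKM. The DHC mean is under the filter of 1 RPKM, which Sla passed through its control libraries. The log2 fold change was −1.01 ± 0.17 (SE; adjusted p = 0.00308), and the pseudocount shrank it, since it was −1.65 with a pseudocount of 0.1 and −1.77 with limma-voom. Sla lies within the span of the thyroglobulin gene Tg on the opposite strand, shares no exon base with it, and Tg was at 0.0134 to 0.0502 RPKM in all 6 libraries.

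**Figure D2:**
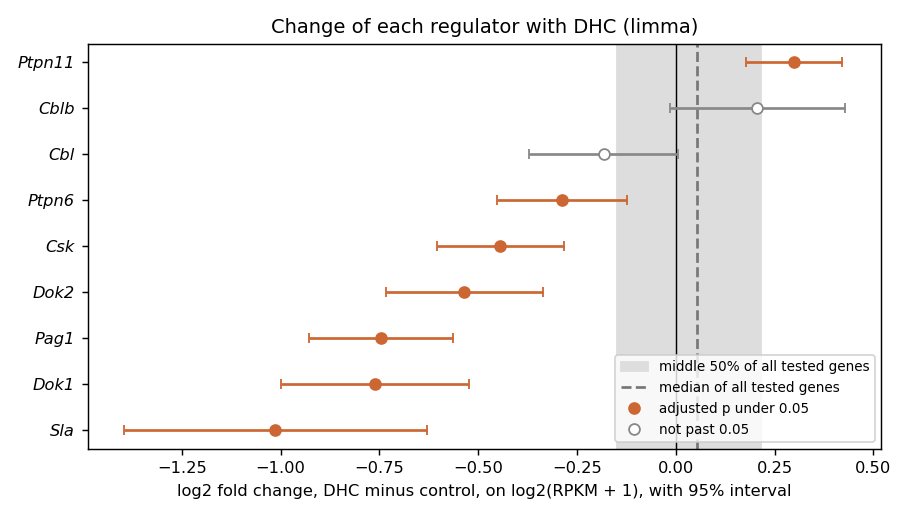
Log2 fold change of each regulator (x axis, DHC minus control on log2(RPKM + 1)) with its 95% interval from limma; filled orange points passed an adjusted p of 0.05 and open grey points did not. The grey band holds the middle 50% of all tested genes, from −0.15 to 0.21, and the points of Sla, Dok1, Pag1, Dok2, Csk, Ptpn6 and Cbl lie to its left, that of Ptpn11 to its right and that of Cblb within it.

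None of the 9 regulators shared an exon base with another gene of the table. With 3 against 3 libraries an exact two-sided permutation test cannot go below 0.1. It gave 0.1 for the 8 regulators whose groups were apart and 0.2 for Cbl. The labels do not say whether replicates were grown separately, so every p-value is relative to a spread that may be only technical. Values are of RNA, and in bulk samples fewer cells of a kind and less RNA per cell cannot be told apart.

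**Figure D3:**
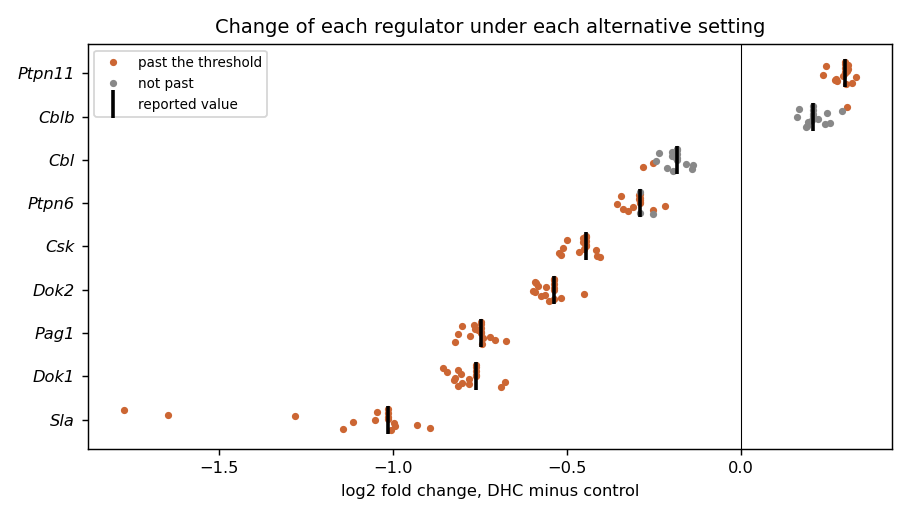
Log2 fold change (x axis) of each regulator as reported (black bar) and under each alternative setting (points, orange where past that setting's threshold and grey where not). All points of a gene lie on the same side of 0, and Sla spreads most, from −1.77 to −0.89. Points for a changed filter, robust variance, replicate block or threshold equal the reported value, since these settings cannot move it.

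Ratios between genes with linked roles were computed in each library from RPKM without a pseudocount. An exact two-sided permutation test was made for each of 7 pairs. The ratio of Ptpn6 to Ptpn11 was 3.59 ± 0.154 in control and 2.37 ± 0.224 in DHC libraries (SD, n = 3 each), and ranged from 3.47 to 3.76 and from 2.12 to 2.55, so the groups did not overlap. The difference between the groups in this ratio of phosphatase messages was −0.60 on the log2 scale (exact p = 0.1, 0.175 adjusted over the 7 pairs). The ratio of Cbl to Cblb was 6.47 ± 0.699 in control and 4.57 ± 0.550 in DHC libraries, again without overlap (−0.50 on the log2 scale, exact p = 0.1, adjusted 0.175). For Pag1 to Csk the ratio was 0.866 ± 0.163 and 0.690 ± 0.0255. Here the groups were only just apart, since the lowest control ratio was 0.736 and the highest DHC ratio 0.715 (exact p = 0.1, adjusted 0.175).

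The ratio of Dok1 to Dok2 was 0.878 ± 0.104 in control and 0.738 ± 0.161 in DHC libraries and overlapped between groups (exact p = 0.3, adjusted 0.35). Csk to Lyn, the kinase it restrains, had a ratio of 1.57 ± 0.206 in control and 1.40 ± 0.0906 in DHC libraries (exact p = 0.3, adjusted 0.35). Lyn itself fell, from 38.2 ± 1.87 to 31.0 ± 0.942 RPKM. Cbl to Syk, a ubiquitination target, had ratios of 1.57 ± 0.0335 and 1.64 ± 0.175, which overlapped (exact p = 0.5, adjusted 0.5). Ptpn6 to Inpp5d, the lipid phosphatase SHIP-1 that acts beside SHP-1 on inhibitory receptors, had ratios of 7.04 ± 0.532 and 9.25 ± 0.741, higher in every DHC library (exact p = 0.1, adjusted 0.175). All 4 pairs without overlap reached only the smallest p that 3 against 3 allows.

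**Figure D4:**
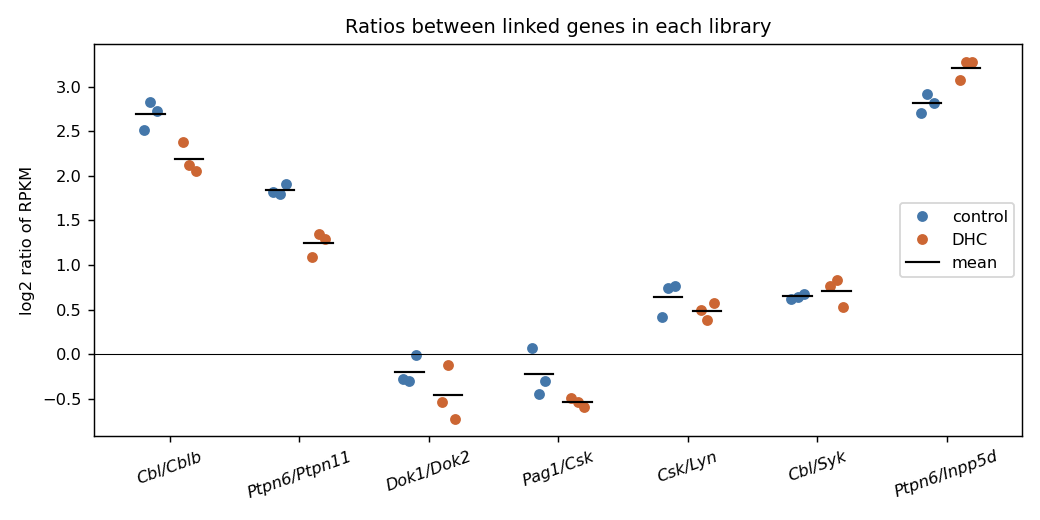
Log2 ratio of RPKM (y axis) for 7 pairs of genes in each control (blue) and DHC (orange) library, with black lines at the group means. Groups are apart for Cbl/Cblb, Ptpn6/Ptpn11, Pag1/Csk and Ptpn6/Inpp5d and overlap for Dok1/Dok2, Csk/Lyn and Cbl/Syk.

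Related genes were read from 6 further lists. Not all are genes of the restraint, since the lists of Src family kinases and of receptor and proximal signalling also hold genes that carry the signal. The list of inhibitory receptors, most of which carry tyrosine motifs that dock SHP-1, SHP-2 or SHIP-1, had 8 tested genes of 21 listed. Of these 5 fell and none rose (median log2 fold change −0.30), so 62.5% were called, where 34.5% of all genes were; shares for the lists are descriptions and were not tested. Milr1, the mast cell receptor Allergin-1, fell from 263.6 ± 12.0 to 163.7 ± 5.58 RPKM. Cd72 fell from 20.5 ± 2.12 to 7.42 ± 1.27 RPKM. Klrg1, first described on RBL-2H3 cells as the mast cell function-associated antigen, fell from 39.4 ± 1.01 to 30.3 ± 1.90 RPKM, and Fcgr2b, the inhibitory IgG receptor, from 34.9 ± 0.556 to 29.7 ± 0.875 RPKM. The last 3 had adjusted p-values of 0.000174, 0.0027 and 0.00981.

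Of 12 tested Src family kinases and their regulators (20 listed), 6 fell and 1 rose (median −0.20), 58.3% against the 34.5% of all genes. Src fell from 12.4 ± 0.0933 to 5.29 ± 0.417 RPKM, and Sit1, an adaptor that binds SHP-2 and Csk, from 16.1 ± 1.201 to 6.68 ± 0.454 RPKM. Ptprc (CD45), the phosphatase that removes the phosphate Csk puts on, fell 1.85-fold, and Ptpn12, a phosphatase partner of Csk, fell 1.64-fold. Ptpra, another phosphatase of that tyrosine, was the 1 gene of the list that rose, from 29.0 ± 0.172 to 36.1 ± 2.48 RPKM (adjusted p = 0.00699); it was named after its values were seen. Of 13 tested lipid and Ras brakes (16 listed), 7 fell and 3 rose (median −0.46), or 9 and 1 under scaling by trimmed means, 76.9% against 34.5%. Rgs1, which shortens G protein signals, fell from 738.5 ± 48.0 to 211.7 ± 14.3 RPKM, Spred1, a Ras pathway inhibitor, from 23.2 ± 0.0618 to 12.1 ± 0.840 RPKM, and Inpp5d 1.61-fold. Dgke, a diacylglycerol kinase gene, rose from 1.18 ± 0.0211 to 3.29 ± 0.248 RPKM.

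Of 13 tested partners of ubiquitin ligases (17 listed), 3 fell and none rose, a share of 23.1% against the 34.5% over all genes. Ubash3b, whose product binds Cbl and acts as a phosphatase, fell from 18.1 ± 0.590 to 8.64 ± 0.305 RPKM (−0.99 ± 0.06 on the log2 scale, SE, with a limma adjusted p of 3.5e-05). Stam, an endosomal sorting gene, fell 1.42-fold and Tsg101, of the same route, 1.2-fold. Usp8, a deubiquitinase of endosomes, stood at 32.2 ± 2.02 and 36.1 ± 1.44 RPKM (adjusted p = 0.0797). Its log2 fold change of 0.16 passed without control replicate 1 (0.0372) and with limma-voom (0.039), and was 0.09 under scaling by trimmed means (0.249). Of 10 tested relatives of the adaptors (17 listed), 4 fell and 1 rose, 50% against 34.5%. Dok3 was the relative of Dok1 and Dok2 that fell with them, from 4.43 ± 0.684 to 2.74 ± 0.348 RPKM, while Dok4 rose from 1.90 ± 0.378 to 3.34 ± 0.120 RPKM. The Dok3 call was lost without DHC replicate 2 (adjusted p = 0.0513) and without both libraries numbered 1 (0.0792). Sh2b1, a relative of Sh2b2, fell 1.18-fold, and Lat2, an adaptor with both positive and negative roles in mast cells, fell 1.32-fold, a call lost without control replicate 1 or 2 or DHC replicate 2 or 3 (log2 fold change −0.39 to −0.32, adjusted p from 0.0511 to 0.0661) and with no filter on low values (0.0537).

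Of 18 tested receptor and proximal signalling genes (19 listed), 7 fell and 2 rose, or 8 and 1 under scaling by trimmed means, 50% against the 34.5% of all genes. Among those that fell were the adaptor gene Lcp2 (2.38-fold lower), Gab2 (1.79-fold lower) and Kit (1.78-fold lower).

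**Figure D5:**
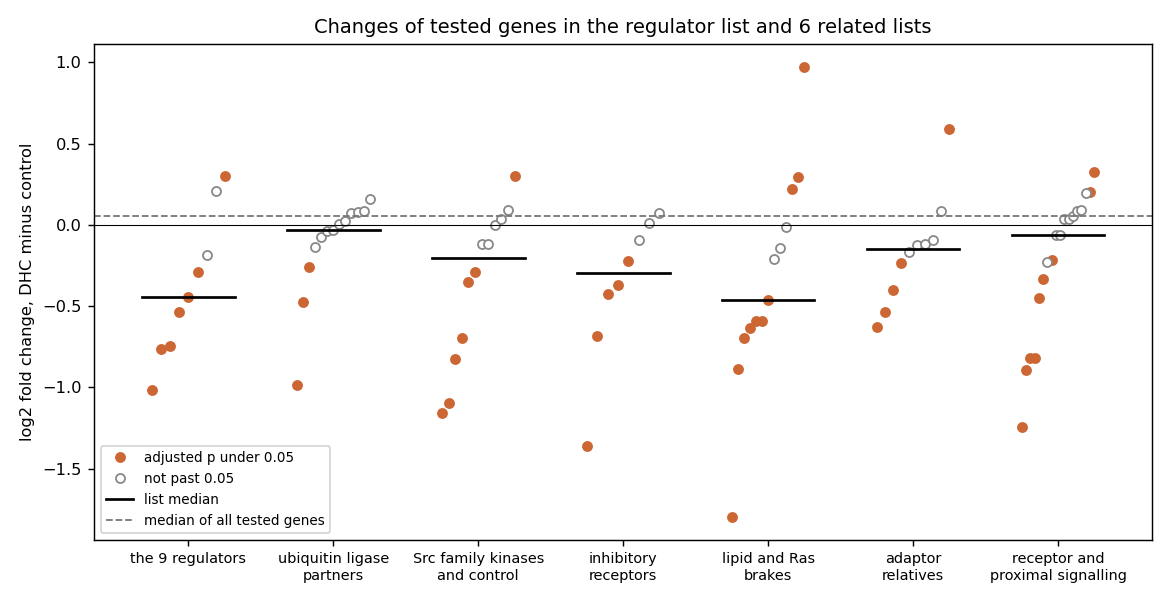
Log2 fold change (y axis, DHC minus control) of each tested gene of the 9 regulators and of 6 related lists; filled orange points passed an adjusted p of 0.05, open grey points did not, black bars are list medians and the dashed line is the median of all tested genes, 0.05. The list medians range from −0.46 for lipid and Ras brakes to −0.03 for ubiquitin ligase partners.

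The genes nearest in pattern to Pag1 and Ptpn11 over the 6 libraries were found by the distance of log2(RPKM + 1) values, each centred on its own mean, among 6630 named genes averaging 5 RPKM or more. Nearest to Pag1 were Pla2g4a, the cytosolic phospholipase A2 gene (distance 0.0786), Mns1 (0.0833) and Ets1, a transcription factor gene (0.110). Pla2g4a stood at 35.5 ± 3.25 RPKM in control and 21.5 ± 0.563 in DHC libraries. Nearest to Ptpn11 were Cdr2 (0.0497), Mcm3ap (0.0519) and Uggt1 (0.0553), and Cdr2 stood at 32.3 ± 0.328 and 39.4 ± 1.41 RPKM.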

How the data were processed

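RNA-seq of 6 libraries was analysed from the authors' deposited table of RPKM values, with 1 column per library. The tools named per the submitters' processing notes are Trimmomatic 0.36 and edgeR 3.12.1, with featureCounts from Subread 1.5.1, on Rnor_6.0. The aligner, annotation release and strand setting were not given in the sources used here. In each library, value times exon length was a whole multiple of 1 smallest step, the value of 1 read, within 0.01 read for 100% of values; dividing by that step gave the reads, and their sum the library total. RPKM carries no scaling beyond the library total. Groups came from sample titles. Changes were tested with limma 3.58.1 (R 4.3.3), trended variance, on log2(RPKM + 1), for 10667 genes averaging 1 RPKM or more. Group was the single term, and p-values were adjusted by Benjamini-Hochberg over all genes tested. In a test on simulated reads of this comparison (10673 genes, dispersion set at 0.005), 12%, 80%, 96% and 98% of genes changed 1.25-, 1.5-, 2- and 4-fold were recovered. It made 151 calls, of which 8 were false. Far fewer genes were changed in it than the 34.5% called in the data, so these shares do not give the power of this comparison. The members, lists, pairs and motifs were chosen with earlier results of these data known. Named were all members, up to 4 genes with the lowest p of each list with a call, and the 3 genes nearest in pattern to the lowest-p member in each direction. A gene that this rule names is not reported here. Alternatives changed the pseudocount, filter, scaling, variance model, threshold, replicate block and libraries.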

Additional observations from a re-analysis of the deposited data

How the results depend on the processing

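All 151 values of the 9 regulators under the alternatives kept their sign, and 145 stayed on the same side of the threshold. A changed filter, robust variance, replicate block or threshold leaves a log2 fold change as it was. The signs under those settings could therefore not differ, and only the calls could. The number past the threshold ranged from 6 to 8 instead of 7. Cbl passed without DHC replicate 1 (range over the 6 left-out libraries −0.25 to −0.14) and without both libraries numbered 1 (−0.28, an alternative added after seeing the data), and Cblb passed with limma-voom (0.31). Ptpn6 did not pass at an adjusted p of 0.01 (log2 fold change −0.29) or without control replicate 2 or 3, and ranged from −0.34 to −0.22 when 1 library was left out. Of the adaptor relatives 5 passed, but 2 with a filter of 5 RPKM or at an adjusted p of 0.01, 3 without both libraries numbered 1, and 3 to 5 when 1 library was left out (3 without control replicate 1, control replicate 2 or DHC replicate 2); a filter of 5 RPKM tests fewer genes, and otherwise the cause was not tested. Cblb and Sla could not be fitted under the filter of 5 RPKM. With a replicate block 7 regulators passed, as without it. In this balanced design the block cannot move a log2 fold change, so Pag1 stayed at −0.75 by construction. Among the other named genes the block changed the call of Usp8 (limma adjusted p = 0.0272). Deviations of same-numbered libraries correlated at 0.228, −0.0495 and 0.0828, so the numbers were not taken to pair the libraries, and not every library correlated best with its own number. The 0.228 of the libraries numbered 1 was the highest between any control and DHC library. Over all genes tested, 2426 were called higher and 1907 lower with the block, against 1968 and 1717 without it. Whether same-numbered libraries share a source was not tested. Low reads limit Sla most.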

Other observations

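The order of the regulators by level differed between the groups, an observation made after the values were seen and not tested. In every control library Pag1 (45.8 to 56.4 RPKM) was above Ptpn11 (30.7 to 32.6 RPKM), and in every DHC library Ptpn11 (37.5 to 40.6 RPKM) was above Pag1 (28.9 to 31.3 RPKM). Cbl and Dok2 were level in control libraries (11.7 to 13.0 and 12.3 to 12.9 RPKM), whereas Cbl (9.99 to 11.8 RPKM) was above Dok2 (7.35 to 9.15 RPKM) in all DHC libraries. Sla and Cblb overlapped in control libraries (1.93 to 3.15 and 1.82 to 2.05 RPKM), and with DHC Sla (0.553 to 1.0 RPKM) was below Cblb (2.28 to 2.41 RPKM) in all libraries. Levels of different genes are per annotated exon length.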
